A study of Mus musculus with 6 samples.

Results

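The transcripts of 10 genes whose products make up mouse milk were followed in mammary tumors of a mouse model of *Apc* loss and in control mammary glands. They were the 5 casein genes *Csn1s1*, *Csn2*, *Csn1s2a*, *Csn1s2b* and *Csn3*, the whey protein genes *Wap*, *Lalba* and *Glycam1*, and 2 genes of the milk fat globule, *Btn1a1* and *Xdh*. A gene was taken where the platform annotation gives a probe set its symbol alone, and all 10 genes were found, with 18 of the 45101 probe sets on the array. The tested samples were 3 mammary tumors of acinar histology from *K14-cre*; *ApcCKO/+* females, and the controls were 3 mammary glands of *cre*-negative mice matched for age, 1 Affymetrix M430 2.0 array per sample. In this model the keratin 14 promoter drives Cre in embryonic progenitors of both epithelial layers, and 1 *Apc* allele is conditional. The study describes these 3 tumors as heterozygous for the deleted form of this allele, with the other allele truncated by a mutation. Acinar tumors came from mice of mixed C57BL/6, 129/S and FVB background, and the study describes the *K14-cre*; *ApcCKO/+* females as nulliparous. The ages in months, the *Apc* genotype of the *cre*-negative mice, their parity and their stage of the estrous cycle are not given in the sources used here. Nor do these sources say whether each of the 3 replicates of a group came from a separate animal, so that the p-values measure only the spread between these samples.

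Caseins are the phosphoproteins of milk. The alpha- and beta-like caseins, encoded by *Csn1s1*, *Csn1s2a*, *Csn1s2b* and *Csn2*, bind calcium phosphate, and kappa-casein, encoded by *Csn3*, covers the surface of the micelle and keeps it in suspension. Their genes lie together in 1 cluster. In the mouse they are switched on in the alveolar luminal cells during pregnancy, caseins before whey acidic protein and alpha-lactalbumin, under prolactin, its effector Stat5 and the transcription factor Elf5. Low transcript levels also occur in glands that are not lactating. Butyrophilin (*Btn1a1*) and xanthine oxidoreductase (*Xdh*) bind each other on the fat droplet as it leaves the cell.

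To show the sequence at the starts of these genes, the promoters of those with a match to the Stat5 motif are printed here. RefSeq sequences of build GRCm38.p6, each running from 250 bases before to 50 bases after the annotated start, were at hand for 6 of the 10 genes. The motif TTCNNNGAA, which reads the same on both strands, was found in 4 of these 6, once in each, and in 8.3% of 32851 promoters of the same length. It is in capitals in the sequences of *Csn1s1* (chr5:87665958-87666257, plus strand), *Csn2* (chr5:87699376-87699675, minus strand), *Csn1s2a* (chr5:87774200-87774499, plus strand) and *Glycam1* (chr15:103565032-103565331, minus strand).
Csn1s1: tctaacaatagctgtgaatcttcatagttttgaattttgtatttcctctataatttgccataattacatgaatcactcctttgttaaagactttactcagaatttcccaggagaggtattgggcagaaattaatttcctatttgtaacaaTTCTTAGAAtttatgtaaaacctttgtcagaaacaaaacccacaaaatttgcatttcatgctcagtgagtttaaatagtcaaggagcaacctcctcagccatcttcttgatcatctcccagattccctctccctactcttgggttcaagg
Csn2: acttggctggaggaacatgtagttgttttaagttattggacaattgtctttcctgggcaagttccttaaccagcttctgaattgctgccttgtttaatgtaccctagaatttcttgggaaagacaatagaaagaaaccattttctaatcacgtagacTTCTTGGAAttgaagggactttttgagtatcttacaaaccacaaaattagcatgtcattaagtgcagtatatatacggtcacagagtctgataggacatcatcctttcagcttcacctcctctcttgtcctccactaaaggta
Csn1s2a: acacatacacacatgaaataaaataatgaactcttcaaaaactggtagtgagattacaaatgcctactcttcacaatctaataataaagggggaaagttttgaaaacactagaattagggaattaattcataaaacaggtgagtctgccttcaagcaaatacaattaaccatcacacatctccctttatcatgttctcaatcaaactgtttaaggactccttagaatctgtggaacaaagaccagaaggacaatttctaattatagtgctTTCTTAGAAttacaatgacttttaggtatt
Glycam1: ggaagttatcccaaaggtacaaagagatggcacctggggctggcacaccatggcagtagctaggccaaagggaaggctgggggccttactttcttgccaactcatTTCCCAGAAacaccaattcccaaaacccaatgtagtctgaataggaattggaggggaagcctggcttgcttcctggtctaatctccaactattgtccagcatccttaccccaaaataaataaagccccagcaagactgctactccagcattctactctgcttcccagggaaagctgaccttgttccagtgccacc
The match began 100 bases before the annotated start of *Csn1s1*, 93 before that of *Csn2* and 145 before that of *Glycam1*, and 20 bases after that of *Csn1s2a*. The windows of *Wap* and *Lalba* held no match to these letters. Neither TATAAA on either strand, which 13.6% of all promoters hold, nor the palindrome of nuclear factor 1 (TTGGC and GCCAA with 5 bases between them), which 0.0365% hold, was found in any of the 6. A match to letters is a description of the sequence and does not show that a factor binds there.

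The deposited values are MAS 5.0 signals on a linear scale, which the authors had scaled to a target of 500, and each of the 6 arrays had that trimmed mean. Between 54.3% and 56.6% of probe sets reached a signal of 100 in tumors, and between 55.8% and 61.5% in control glands. The targeted gene *Apc* had signals of 1923, 1526 and 2006 in tumors and of 1922, 2077 and 2149 in control glands. Whether its probe set lies outside the deleted exon was not tested, so this does not check the genotype. Cell type markers were called at an adjusted p under 0.05 from limma, where 16.3% of all genes tested were higher in tumors and 16.8% lower. The markers of luminal epithelium were present in both groups. Of 14 tested, 9 were higher in tumors and 1 was lower, and their summed signal lay between 88490 and 109904 in tumors and between 14968 and 33183 in control glands. Of 10 myoepithelial markers 3 were higher and 1 was lower (sums of 25480 to 31997 in tumors and 17702 to 20105 in control glands). Markers of the stroma fell, with 10 of 10 adipocyte markers lower (5315 to 13781 against 136925 to 176675), 9 of 10 fibroblast markers lower (2750 to 16184 against 65747 to 79864) and 9 of 12 endothelial markers lower (2295 to 5822 against 12453 to 16034). Of 6 markers of salivary and lacrimal glands 3 were higher and 1 was lower (7078 to 84404 in tumors, 8544 to 10191 in control glands). In bulk RNA, fewer cells of a type and less RNA per cell cannot be told apart.

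None of the 10 milk genes passed the test between tumors and control glands. At an adjusted p under 0.05 from limma, with log2 signals floored at 50 and the adjustment over 12518 genes, 0 of the 10 were higher and 0 were lower in tumors, where 16.3% of all genes tested were higher and 16.8% lower. The count was also 0 with the methods' t-test, and 0 at an unadjusted p under 0.05, where 23.4% of all genes were higher and 21.5% lower (45% in either direction). The smallest adjusted p was 0.193, for *Csn3*. In all 10 genes the tumor signals overlapped those of the control glands, whereas 50.2% of the genes tested had groups that do not overlap (27.1% with all tumors above and 23.1% with all tumors below). Of the 10, 7 had a log2 difference, tumor minus control, above 0, and 3 had one below 0. Their median was 1.18, against 0.07 over all genes tested and 2.11 for the luminal markers. The 95% intervals were wide, so these samples do not show that the levels are alike, and differences of several fold in either direction lie within most of them. An exact permutation test of 3 against 3 arrays cannot give a p below 0.1, and it gave values from 0.2 to 0.8 over the 10 genes (2-sided).

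**Figure D1:**
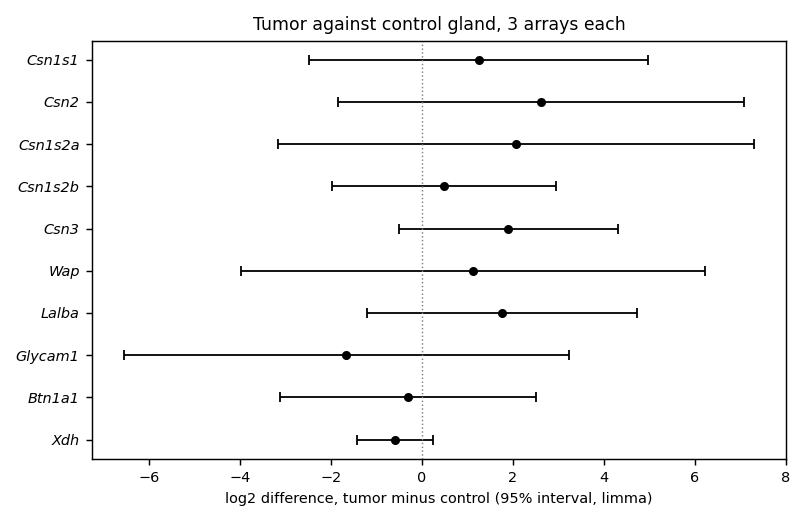
Log2 difference, tumor minus control, of the 10 milk genes on the horizontal axis, with its 95% interval from limma on 3 tumor and 3 control arrays. All 10 intervals contain 0, from *Csn3*, whose interval runs from −0.50 to 4.31, to *Glycam1*, whose interval runs from −6.56 to 3.22.

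The genes of the calcium-binding caseins *Csn1s1*, *Csn2* and *Csn1s2a* were high in 2 tumors and 2 control glands and low in the other sample of each group. *Csn1s1*, which encodes alpha-S1-casein, had signals of 30657, 2490.4 and 34794 in tumor replicates 1, 2 and 3 and of 19726, 510.1 and 19514 in control replicates 1, 2 and 3. Tumors 1 and 3 lay above all control glands, and tumor 2 lay below control glands 1 and 3. The log2 difference was 1.25 (standard error 1.59, adjusted p = 0.577 from limma, 95% interval −2.47 to 4.98), and it was −0.50 without control replicate 2. *Csn2*, the gene of beta-casein, had 27288, 4454 and 37206 in tumors and 7956, 103.6 and 23960.1 in control glands. The same samples were high and low as for *Csn1s1*, with a log2 difference of 2.61 (standard error 1.91, adjusted p = 0.327 from limma, 95% interval −1.85 to 7.08). Leaving out 1 array at a time gave *Csn2* values from 0.26, without control replicate 2, to 4.19.

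*Csn1s2a*, an alpha-S2-like casein gene, spanned the widest range of the caseins. Its signal was 18641, 969 and 36580.1 in tumors and 5829, 64.6 and 23482 in control glands, so that control replicate 3 exceeded control replicate 2 by 363-fold. The log2 difference between the groups was 2.07 (standard error 2.24, adjusted p = 0.51 from limma), and it was −0.43 without control replicate 2. *Csn1s2b*, its paralog and neighbor in the cluster, was high in tumor replicate 3 alone. It had 103, 71.4 and 1005 in tumors and 225, 45.8 and 242 in control glands, and only tumor 3 stood above the control range. Its log2 difference was 0.48 (standard error 1.05, adjusted p = 0.755 from limma), −0.70 without tumor replicate 3 and −0.26 without control replicate 2.

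*Csn3*, the gene of kappa-casein, did not follow the other caseins in tumor replicate 2. It had 28229, 43116 and 42427 in tumors, a range of 1.53-fold, and 34712, 1569.9 and 18112 in control glands, a range of 22.1-fold. Tumors 2 and 3 lay above all control glands, and tumor 1 lay below control gland 1. Tumor 3 over tumor 2 was 0.984 for *Csn3*, against 14.0 for *Csn1s1*, 8.35 for *Csn2*, 37.7 for *Csn1s2a* and 14.1 for *Csn1s2b*. These are ratios of single arrays and have no replicate. In control glands the relation was another one, since control 3 over control 2 was 11.5 for *Csn3* and between 38.3 and 363 for *Csn1s1*, *Csn2* and *Csn1s2a*, but at least 4.85 for *Csn1s2b*, whose value in control gland 2 was under the floor. The log2 difference between the groups was 1.90 (standard error 1.03, adjusted p = 0.193 from limma, 95% interval −0.50 to 4.31), and with 1 array left out it ran from 0.57, without control replicate 2, to 2.80. The second *Csn3* probe set had the same order of arrays within control glands, with 1207, 3723 and 4045 in tumors and 3849, 150.1 and 1456 in control glands.

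**Figure D2:**
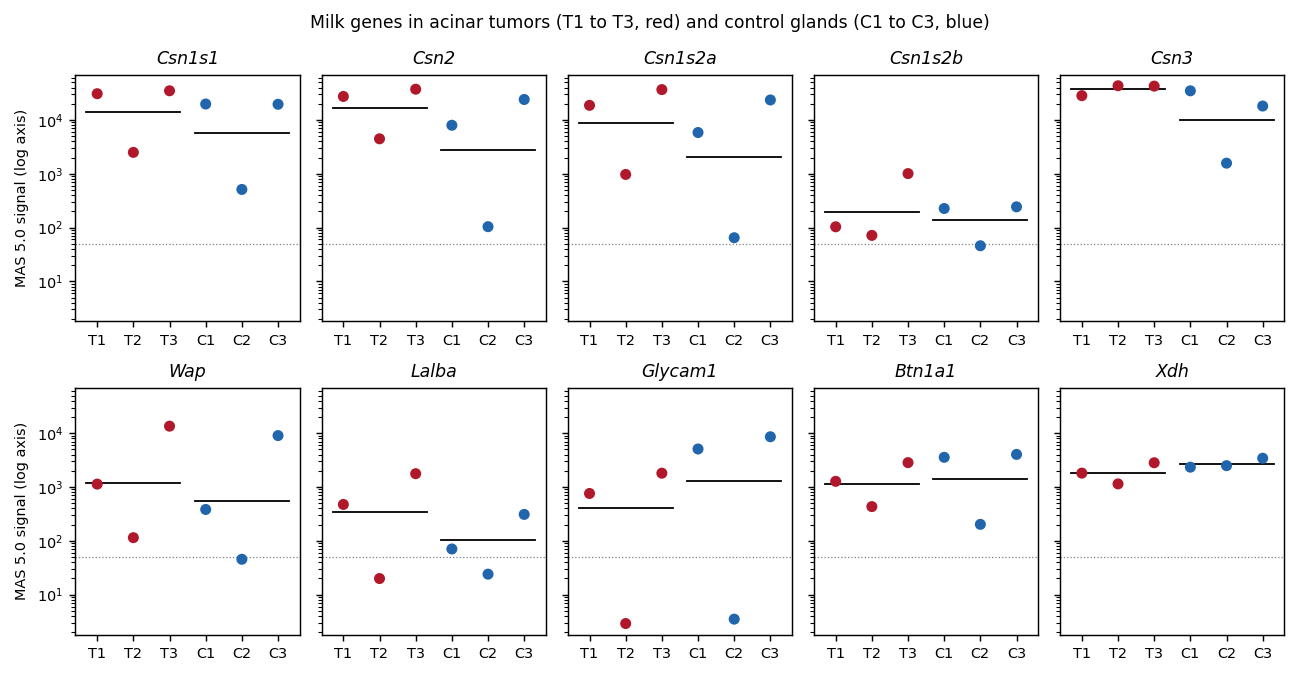
Each panel gives 1 of the 10 milk genes, with the MAS 5.0 signal on a log axis and 1 point per array, with tumors (T1 to T3) in red and control glands (C1 to C3) in blue. The black line is the mean of each group on the log2 scale after a floor of 50, which the dotted line marks, and T2 and C2 are the lowest arrays of their groups for 9 genes each.

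Among whey protein genes, *Wap* separated control replicates 1 and 3, which the caseins *Csn1s1* and *Csn3* did not to the same degree. *Wap*, which encodes whey acidic protein, a major whey protein of rodents, had 1132, 114 and 13511 in tumors and 382, 45.4 and 9030.1 in control glands. It was high only in replicate 3 of each group. Control 3 over control 1 was 23.6 for *Wap*, 0.989 for *Csn1s1*, 0.522 for *Csn3* and 3.01 for *Csn2*. Tumor 3 over tumor 1 was 11.9 for *Wap*, 9.74 for *Csn1s2b* and between 1.13 (*Csn1s1*) and 1.96 (*Csn1s2a*) for the other 4 caseins. The log2 difference between the groups was 1.11 (standard error 2.18, adjusted p = 0.724 from limma), and it was −0.63 without tumor replicate 3 and −0.62 without control replicate 2.

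*Lalba* encodes alpha-lactalbumin, the subunit that turns a galactosyltransferase into lactose synthase. Its signals were 474, 19.9 and 1768 in tumors and 70.5, 24.0 and 310 in control glands, with tumor 2 and control gland 2 below the floor of 50. Tumors 1 and 3 lay above all control glands. The log2 difference was 1.75 (standard error 1.27, adjusted p = 0.323 from limma, 95% interval −1.21 to 4.72). With 1 array left out it ran from 0.58, without tumor replicate 3, to 3.15, without tumor replicate 2 (adjusted p = 0.0554).

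*Glycam1* encodes a mucin-like glycoprotein that milk contains and that the high endothelial venules of lymph nodes also make. It had 758, 2.9 and 1806 in tumors and 5091, 3.5 and 8589.5 in control glands. Tumors 1 and 3 lay below control glands 1 and 3, an order opposite to that of *Lalba*, and the lowest sample of each group was under the floor. The log2 difference was −1.67 (standard error 2.09, adjusted p = 0.572 from limma, 95% interval −6.56 to 3.22), and it ran from −4.01 to −0.15 with 1 array left out. Of 16 listed markers of lymph nodes and their venules, 14 were annotated and 6 passed the filter. The B cell genes *Cd22*, *Cd79b* and *Ms4a1* and the chemokine gene *Cxcl13* were lower in tumors, as were 16.8% of all genes tested. The other 2 markers did not pass. The summed signal of the 6 was 418 to 547 in tumors and 11105, 974.5 and 3606 in control replicates 1, 2 and 3. The venule gene *Madcam1* had 137, 61.9 and 75.3 in tumors and 182, 58.7 and 187 in control glands (log2 difference −0.55, adjusted p = 0.445 from limma), and *Chst4* and *Fut7* did not pass the filter. The part of lymph node tissue in the *Glycam1* values was not tested. *Glycam1* was highest in control gland 3, as *Madcam1* was, and the summed lymph node signal in control gland 1. All 3 were lowest in control gland 2 among the control glands.

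For neither gene of the fat globule membrane did tumors 1 and 3 both lie above all control glands. The same was true of *Csn1s2a*, *Csn1s2b*, *Csn3*, *Wap* and *Glycam1*, but not of *Csn1s1*, *Csn2* and *Lalba*. *Btn1a1* had 1275, 432.5 and 2839 in tumors and 3563, 202 and 4037 in control glands. Control glands 1 and 3 lay above all tumors, and control gland 2 below them. The log2 difference was −0.30 (standard error 1.20, adjusted p = 0.868 from limma), and its sign turned without tumor replicate 2 (0.41), control replicate 1 (0.36) or control replicate 3 (0.45). *Xdh*, the gene of xanthine oxidoreductase, which endothelial and other cells also express, had 1811, 1142 and 2824 in tumors and 2338, 2493 and 3426 in control glands. Here control gland 2 was not dim, and the range over control glands was 1.47-fold. The log2 difference of *Xdh* was −0.59 (standard error 0.36, adjusted p = 0.238 from limma, 95% interval −1.42 to 0.24).

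The milk genes were among the most variable genes between samples of 1 group. Over all genes tested the highest array exceeded the lowest by a median of 1.52-fold in tumors and 1.45-fold in control glands, and 95% of genes stayed below 3.49-fold and 3.47-fold. In tumors the range was 118-fold for *Wap*, 37.7-fold for *Csn1s2a*, 14.0-fold for *Csn1s1* and 8.35-fold for *Csn2*, and at least 36.1-fold for *Glycam1* and at least 35.4-fold for *Lalba*, whose lowest values were under the floor. In control glands it was 363-fold for *Csn1s2a*, 231-fold for *Csn2*, 38.7-fold for *Csn1s1*, 22.1-fold for *Csn3* and 20.0-fold for *Btn1a1*, and at least 181-fold for *Wap* and at least 172-fold for *Glycam1*. *Csn1s2a* had a wider range over control glands than 99.99% of the genes tested. *Xdh* had a range near the median over control glands, at the 51.3rd percentile, and so had *Csn3* over tumors, at the 50.5th, although its second probe set spanned 3.35-fold over tumors.

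**Figure D3:**
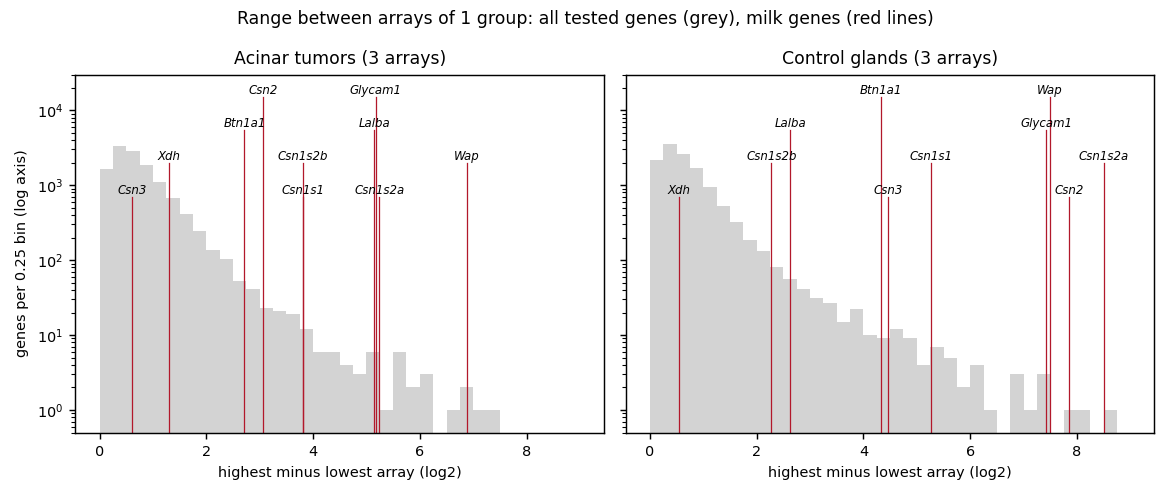
Number of genes, on a log axis, by the difference between the highest and the lowest array of a group on the log2 scale, for 3 tumors on the left and 3 control glands on the right. Grey bars are the 12518 genes tested and red lines are the 10 milk genes, of which *Csn3* in tumors and *Xdh* in control glands lie near the middle of the distribution.

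The variation ran along the same samples for most of the genes. Tumor replicate 2 was the lowest tumor for 9 of 10 milk genes, against 35.2% of all genes tested, with *Csn3* the exception, and control replicate 2 was the lowest control gland for 9 of 10, against 44.0%, with *Xdh* the exception. Tumor replicate 3 was the highest tumor for 9 of 10, against 33.3% of all genes, and control replicate 3 the highest control gland for 8 of 10, against 30.5%. The summed signal of the 5 caseins was 104918, 51101 and 152012 in tumors, against 68448, 2294 and 85310 in control glands. Other genes differed between the same samples. The summed luminal markers were 14968 in control gland 2, against 27109 and 33183 in control glands 1 and 3. Control 3 over control 2 was 2.22 for this sum, 1.37 for *Xdh*, 11.5 for *Csn3*, 231 for *Csn2* and 363 for *Csn1s2a*. Single luminal markers did not all follow this sum. In control glands 1, 2 and 3, *Ehf* had 826, 214 and 1353, whereas *Elf3* was nearly level at 309, 308 and 333. *Prom1* was lowest in control gland 3, with 771, 706 and 391. The 9 skeletal muscle markers, of which none passed the test between groups, summed to 210492 in control gland 2, against 7491 and 70483 in control glands 1 and 3, and to 38633, 1961 and 649.5 in the tumors. Tumor 2 had a luminal sum of 107766, close to the 109904 of tumor 3. The part of tissue composition in the milk gene values was not tested.

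Of the 18 probe sets, 15 reached a signal of 100 on at least 3 arrays. Tested as single probe sets, 0 of the 15 were called, where 13.3% of all probe sets were higher in tumors and 15.2% lower (28.5% in either direction). The second probe set of *Csn2* had 23141, 1119 and 28120.1 in tumors and 2336, 47.8 and 14383 in control glands. *Csn1s2a* was read by 5 probe sets. The second brightest followed the one that stands for the gene, with 16305, 510.2 and 33907 in tumors and 3314, 7.5 and 19828 in control glands. Another pair was low in tumor 1 as well, with 241, 119 and 9163 in tumors and 414, 23.7 and 1527 in control glands for one, and 160.0, 73.5 and 2599 in tumors and 154, 26.5 and 643 in control glands for the other. Tumor 3 over tumor 1 was 38.0 and 16.2 for this pair, against 1.96 for the probe set that stands for the gene. The fifth *Csn1s2a* probe set and 2 of the 3 for *Btn1a1* stayed below 100 on all 6 arrays and were not tested.

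Among the genes that carry the lactogenic signal, *Stat5a* was higher in every tumor than in every control gland, as were 27.1% of all genes tested. The same held for *Elf5*, *Id2*, *Akt1*, *Nfib* and *Stat5b* of this list. Of 20 listed genes 16 were tested, of which 2 rose, 3 fell and 11 did not pass (33.1% of all genes were called in either direction). *Stat5a*, the main effector of prolactin in the gland, had 5744, 3330.4 and 6781 in tumors and 1128, 1211 and 1350 in control glands, a log2 difference of 2.05 (adjusted p = 0.00263 from limma), but it did not pass the methods' t-test. *Id2*, an inhibitor of helix-loop-helix factors needed for alveolar growth in mice, rose by 2.49 (adjusted p = 0.00866), and the growth hormone receptor gene *Ghr* fell by 3.52 on the log2 scale (adjusted p = 0.000175). *Cish*, a feedback inhibitor that Stat5 induces, had a log2 difference of −0.07 (adjusted p = 0.91). In control gland 2, where the caseins were lowest, *Stat5a* had the level of the other control glands, and in tumor 2 it was the lowest of the tumors. The luminal markers had a median log2 difference of 2.11 and the adipocyte markers one of −5.80. The part of tissue composition in the values of these signaling genes was not tested.

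Other products of milk secretion were called in both directions. Of 25 listed genes 20 were tested, of which 6 rose, 3 fell and 11 did not pass, with a median log2 difference of 0.22, where 16.3% of all genes were higher, 16.8% lower and the median was 0.07. *Cel*, the gene of the bile salt-stimulated lipase of milk, had 4619, 1109 and 20159 in tumors and 254, 85.5 and 209 in control glands, a log2 difference of 4.83 (adjusted p = 0.00925). Its order within the tumors was that of all the milk genes followed here except *Csn3*. All tumors lay above all control glands, as for 27.1% of all genes tested. *Cd36*, a fatty acid transporter of the globule membrane, fell by 5.24 on the log2 scale (adjusted p = 0.00157), and *Cidea*, a droplet protein, fell by 5.02 (adjusted p = 0.00238). Both are also genes of adipocytes, whose markers were lower in tumors, and the part of fat tissue in their values was not tested. *Ltf*, the lactoferrin gene, had 10345, 1461 and 2860 in tumors and 17063, 558 and 4065 in control glands (log2 difference 0.05, adjusted p = 0.977), with a value of −0.73 without tumor replicate 1 and of −1.25 without control replicate 2. A further pair of globule genes was singled out after their values were seen. *Mfge8*, the gene of lactadherin, had 5367, 1800.4 and 6120 in tumors and 14379, 6997 and 12928 in control glands (log2 difference −1.49, adjusted p = 0.0595). *Plin2*, the coat protein of the droplet, had 16325, 8456 and 23352 in tumors and 14542, 15258 and 10453 in control glands (0.16, adjusted p = 0.78), and −0.17 without tumor replicate 3 and −0.012 without control replicate 3.

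**Figure D4:**
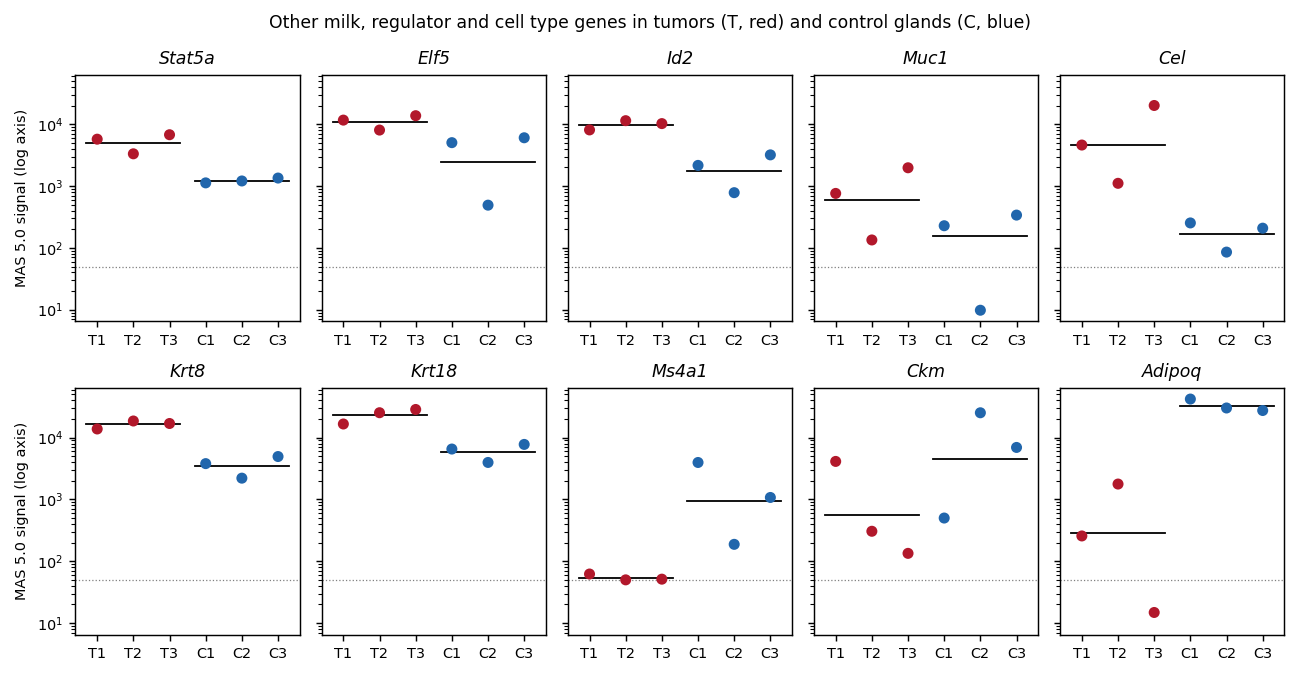
Each panel gives the MAS 5.0 signal of 1 gene on a log axis, for genes of lactogenic signaling (*Stat5a*, *Elf5*, *Id2*), of milk (*Muc1*, *Cel*) and of luminal cells (*Krt8*, *Krt18*), B cells (*Ms4a1*), muscle (*Ckm*) and fat (*Adipoq*), with 1 point per array, with tumors (T) in red and control glands (C) in blue. Black lines are group means on the log2 scale after a floor of 50, which the dotted line marks, and C2 is the lowest array for *Elf5*, *Krt8* and *Krt18* and the highest for *Ckm*.

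Genes listed for lactose synthesis, the reaction that alpha-lactalbumin directs, and its substrates were called at a share near that of all genes. Of 13 listed 11 were tested, of which 2 rose, 2 fell and 7 did not pass, with a median log2 difference of 0.31, where 33.1% of all genes were called. *B4galt1*, the galactosyltransferase to which alpha-lactalbumin binds and which was singled out after its values were seen, had 2468, 2678 and 3829 in tumors and 1458, 1143 and 1590.3 in control glands, a log2 difference of 1.09 (adjusted p = 0.0165). *Slc35a2*, the carrier of UDP-galactose into the Golgi, rose by 1.23 (adjusted p = 0.0395), but it no longer passed without tumor replicate 2 or 3 or any 1 of the 3 control replicates (adjusted p from 0.0574 to 0.111), and the mean of its probe sets gave −0.038. *Hk2*, a hexokinase, fell by 1.85 (adjusted p = 0.00504), and *Pgm1*, a phosphoglucomutase, fell by 1.35 (adjusted p = 0.0145). *Pgm3*, a listed gene whose part in lactose synthesis was not checked, had a log2 difference of −0.01 (adjusted p = 0.974). The part of tissue composition in the values of these genes was not tested.

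Neighbors of the caseins on chromosome 5 were taken within 1 Mb of the cluster in assembly GRCm38.p6. Of 14 listed 8 were tested, of which 3 rose, 1 fell and 4 did not pass, with a median log2 difference of 0.59, where 16.3% of all genes were higher and 16.8% lower. *Sult1d1* and *Sult1e1*, sulfotransferase genes beside *Csn1s1*, rose by 3.27 (adjusted p = 0.00199) and 1.64 (adjusted p = 0.00343). For *Sult1e1* control glands 1 and 2 lay under the floor of 50 (4.8 and 4.7), so that its difference depends on the floor, and with a floor of 100 it was 0.71 (adjusted p = 0.0575). *Sult1d1* had 1301, 649 and 606 in tumors and 137, 11.3 and 82.3 in control glands, so that tumor 2 lay close to tumor 3. *Jchain*, which encodes the joining chain of secreted antibodies and lies farther along, had 141, 498 and 106 in tumors and 23972, 2496 and 1275 in control glands (log2 difference −4.44, adjusted p = 0.0191), and did not pass without tumor replicate 1 (adjusted p = 0.0558) or 3 (adjusted p = 0.0635). *Odam*, an odontogenic ameloblast-associated gene that lies between *Csn1s2b* and *Csn3* and was singled out after its values were seen, had 64.9, 512 and 494 in tumors and 17.7, 113 and 52.3 in control glands (1.93, adjusted p = 0.102). *Odam* passed without tumor replicate 1 (2.92, adjusted p = 0.0045), and its signal in control gland 1 was under the floor. *Smr2* had a log2 difference of −0.25 (adjusted p = 0.739), which was 0.36 without control replicate 2.

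The 5 genes whose profile over the 6 arrays lay nearest to the mean profile of the 5 caseins were *Muc1*, *Elf5*, *Xaf1*, *BC006965* and *Lcn2*, by the root mean square difference of the centred log2 values, which was 0.94 for *Muc1* and 1.08 for *Lcn2*. *Muc1*, a mucin of the fat globule membrane, had 762, 134 and 1980 in tumors and 228, 9.8 and 340 in control glands (log2 difference 1.90, adjusted p = 0.204). Its signal in control gland 2 was under the floor. *Elf5*, the transcription factor of the alveolar lineage, had 11690, 8067 and 13782 in tumors and 5047, 492 and 6055 in control glands (2.14, adjusted p = 0.104). It was lowest in control gland 2 and, among tumors, in tumor 2, but these genes were chosen for a profile of this shape. *Lcn2*, a secreted lipocalin, had 17816, 11683 and 22051 in tumors and 11208, 1209.8 and 7057 in control glands (1.86, adjusted p = 0.102, and 2.51 with adjusted p = 0.0453 without control replicate 1). *Xaf1* and *BC006965* had log2 differences of 1.55 (adjusted p = 0.285) and 1.96 (adjusted p = 0.104). The distance of single milk genes from the same profile ran from 0.52 for *Csn1s1*, which is part of it, to 1.89 for *Glycam1* and 2.10 for *Xdh*.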

How the data were processed

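RNA of 3 acinar mammary tumors and 3 control glands was hybridized to 6 arrays. The deposited intensity is the MAS 5.0 signal of the authors, scaled per array to a target of 500, and the sources used here do not give the software version. Detection calls stayed unused. The array holds 45101 probe sets, including 64 controls, which were not analyzed. The platform annotation gave 34945 a single symbol and 932 several, and 9160 were unnamed here. Signals under 50 were raised to 50 before log2 values were taken. A probe set was kept at 100 or more on at least 3 of 6 arrays, and each of 12518 genes was represented by its brightest probe set (mean log2 signal). limma 3.58.1 was run in R 4.3.3 (lmFit, then eBayes, 2-sided, Benjamini-Hochberg over all genes, threshold 0.05). Where an array lies under 50, a fold against it is written as at least that value. The steps were tested on simulated data. Intervals are 95% intervals from the limma model, and the number of arrays limits their precision.

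The 10 genes and the lists were chosen with earlier results of these data known. The lists held 166 symbols, of which 156 matched the annotation, and *Amelx* and *Fdcsp* were left out of the casein neighbors because the RefSeq table does not place them under these symbols beside the caseins. Named by rule are the 10 genes, for each list of milk, signaling, lactose or neighboring genes up to 3 called members with the largest difference and the 1 furthest from passing, the 5 nearest profiles and *Apc*. Outside this rule, *Akt1*, *Nfib*, *Stat5b* and single cell type markers were named as examples. *Mfge8*, *Plin2*, *B4galt1* and *Odam* were named after their values were seen. Replicate numbers are shared by both groups. The alternatives were other floors (16, 100), an offset of 50 in place of the floor, quantile normalization, equal array medians, no filter, a filter at 200, a variance trend, a replicate block, probe sets ending in _s_at or _x_at left out, the mean over probe sets, single probe sets, the methods' t-test (unequal variances, statistic of at least 4.5, ratio of at least 2, and its p after adjustment), a limit of 2-fold, and each array left out with the probe sets kept.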

Additional observations from a re-analysis of the deposited data

How the results depend on the processing

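Over 10 milk genes and 21 alternatives, 1 of 210 results passed the threshold. Several alternatives alter only the test and leave the difference as it is. Of 60 differences with 1 array left out, 9 changed sign, and no other alternative turned a sign. The log2 difference then ran from −0.50 (without control replicate 2) to 2.49 for *Csn1s1*, from −0.43 (control replicate 2) to 3.83 for *Csn1s2a*, from −0.70 (tumor replicate 3) to 1.20 for *Csn1s2b*, where it was −0.26 without control replicate 2, and from −0.63 (tumor replicate 3) to 3.12 for *Wap*, where it was −0.62 without control replicate 2. For *Btn1a1* it ran from −1.71 to 0.45 (control replicate 3), with 0.41 without tumor replicate 2 and 0.36 without control replicate 1. With 1 array left out, 0 milk genes were called in either direction. Of all genes, 1263 (without control replicate 3) to 1648 were then higher and 1507 to 1977 lower.

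With the replicate number as a block, 1 milk gene was higher in tumors, *Wap* (1.11, adjusted p = 0.0381), and 6 had an unadjusted p under 0.05. Beyond the replicate number, any matching of single tumors to single control glands is unknown. Replicate 2 was the lowest tumor for 9 of 10 milk genes and the lowest control gland for 9 of 10. Correlations over all genes cannot settle whether samples were matched, because a match could affect only some genes. Over 12518 genes, deviations from the group means of same-numbered tumors and control glands correlated at −0.222, 0.0206 and 0.0379, and no sample correlated best with its own number (r of differently numbered samples up to 0.134). The block also brought *Muc1* and *Mfge8* past the threshold (adjusted p = 0.0121 and 0.0163), and it gave 1630 higher and 1860 lower genes.

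Over all genes 2045 were higher and 2098 lower. The methods' t-test gave 685 and 920 at its threshold and 67 and 73 after adjustment, a limit of 2-fold left 1329 higher and 1818 lower, and single probe sets gave 2985 higher (13.3%) and 3416 lower (15.2%) of 22492. Of 55 genes in the lists of milk, signaling, lactose and neighboring genes, 13 were higher and 9 lower. The t-test gave 6 and 4 at its threshold, where *Stat5a*, *Cel*, *Cidea*, *Pgm1*, *Slc35a2*, *B4galt1*, *Sult1d1* and *Jchain* did not pass, and 0 and 0 after adjustment, and equal array medians gave 20 higher. Equal medians moved the median of all genes to 0.31, against 0.07, and 64.2% of calls were then higher, against 49.4%.

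Among the other named genes, signs turned for *Apc* (0.057 with equal medians), *Slc35a2* (−0.038 as the mean of its probe sets), *Cish* (0.17 with equal medians), *Pgm3* (0.18 with quantile normalization, 0.23 with equal medians), *Ltf* (−0.56 with the t-test) and *Plin2* (−0.045 with quantile normalization). With 1 array left out the log2 difference ran from −0.68 to 0.36 for *Smr2*, −0.39 to 0.28 for *Cish*, −0.16 to 0.10 for *Pgm3*, −1.25 to 1.22 for *Ltf* and −0.17 to 0.56 for *Plin2*. With no filter *Id2*, *Cel*, *Jchain* and *Slc35a2* had adjusted p-values of 0.0519, 0.0615, 0.0959 and 0.117, and with a floor of 100 *Sult1e1* had 0.0575. With equal medians *Elf5*, *Lcn2* and *BC006965* passed (0.0421, 0.038 and 0.0411), as *BC006965* did as the mean of its probe sets (0.0395) and *Mfge8* with a variance trend (0.0472). The cause of these changes was not tested.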
